A study of Mus musculus with 2 samples.

Results

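The genes described here encode ATP-dependent chromatin remodelers and their subunits, taken as every row of the deposited table whose gene symbol begins with Smarc, Arid, Ino80 or Actl6, or is Chd plus a single digit. The rule found 38 genes among the 17827 rows of the table. The study sequenced RNA of mouse embryonic stem cells (mESCs), with 1 library from Setd2 KO cells and 1 from wild type cells, to compare transcript levels in the absence of Setd2 with those in its presence. Both lines are labelled 129SV/C57BL/6 in strain and 10 to 12 in passage number, both grew on feeder cells that were then depleted on gelatin, and neither had a treatment. The sources used here give neither how the allele was disrupted nor from how many clones each line came. Neither genotype had a replicate, so each difference below is one between these libraries, with an interval for counting error alone, and no p-value was computed.

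Remodelers use ATP to slide, eject, exchange or space nucleosomes, and they fall into families named after their motor subunits. The SWI/SNF family (BAF and PBAF complexes) opens enhancers and promoters, ISWI motors space nucleosomes, CHD motors include the engines of the repressive NuRD complex, and INO80 complexes move nucleosomes and exchange histone variants. Embryonic stem cells carry a BAF assembly of their own, called esBAF, built on the motor Smarca4 with Smarcc1, Arid1a, Smarcd1 and Actl6a, and the paralogs Smarca2, Smarcc2, Actl6b and Smarcd3 are known from later cell types such as neurons and heart. Setd2 trimethylates lysine 36 of histone H3 over transcribed genes, and in budding yeast the ISWI-type complex Isw1b and the motor Chd1 keep nucleosomes in place over genes with that mark.

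Depth over genes was 52041677 read equivalents in the Setd2 KO library and 56129838 in wild type, where a read equivalent is 76 sequenced bases over a gene. Levels are given as read equivalents scaled to a library total of 1000000 (CPM). Setd2 itself was at 174 CPM in KO and 452 CPM in wild type, 38.5% of the wild-type level with a 95% counting interval of 37.6 to 39.4%. Its RNA was therefore not absent from the KO library, and these RNA levels do not show whether its protein was. The defining stem cell gene Pou5f1 was at 544 CPM in KO and 558 CPM in wild type, and all 10 stem cell markers examined passed the level floor used below. Genes of 5 cell types were read as lists, and the summed level of 8 primitive endoderm genes was 141 CPM in KO and 336 CPM in wild type, with all 7 compared members lower. The sum for 14 fibroblast genes, standing for feeder cells, was 3339 CPM in KO and 3115 CPM in wild type, most of it Fn1, and 9 of 12 compared members were lower. The fibroblast gene Lum was listed at 0 in the KO library and at only 4 read equivalents in wild type. The 10 stem cell genes summed to 3058 CPM in KO and 3677 CPM in wild type, and 9 of them were lower, with a median log2 fold (KO over wild type) of -0.25. Zfp42 was at 68.1 CPM in KO and 283 CPM in wild type, and Nanog was the member that was higher, at 310.1 CPM in KO and 221 CPM in wild type. The sum was 136 CPM in KO and 132 CPM in wild type for 7 neuronal genes, most of it Stmn2. Of the 6 compared neuronal genes 4 were higher and 2 lower, with a median log2 fold of 0.44. Syt1 was at 2.87 CPM in KO and 0.637 CPM in wild type, and Tubb3, on chromosome 8, at 17.6 CPM in KO and 35.6 CPM in wild type. For 7 striated muscle genes the sum was 13.5 CPM in KO and 16.9 CPM in wild type, and the 2 compared were lower. The neuronal gene Dcx was listed at 0 in wild type and at only 3 read equivalents in KO. The part of any other cell type in the results below was not tested, and in bulk RNA fewer cells of a type and less RNA per cell cannot be told apart.

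Most remodeler genes stood a little lower in the Setd2 KO library, and the shifts were small. Of the 38 genes, 36 averaged 1 CPM or more across the libraries and were compared, and Actl6b and Arid3c did not. Among the 36 the log2 fold, computed as KO over wild type after adding 0.5 CPM to each, was below 0 for 27 genes and above 0 for 9. Over all 13523 genes compared, 43.6% were below 0. The median log2 fold was -0.19 over the 36 remodeler genes and 0.05 over all genes. No remodeler gene was 2-fold apart, a count of 0 in both directions, against 1.76% of all genes at least 2-fold higher and 2.11% at least 2-fold lower. At least 1.5-fold higher was Chd3 alone, 1 of 36 genes against 7.42% of all genes. At least 1.5-fold lower were Arid5b, Smarcd3 and Ino80b, 3 of 36 genes against 6.77% of all genes, so these extreme counts were near or below the background. The counting interval of the ratio lay wholly below 1 for 26 of the 38 genes, wholly above 1 for 8 and included 1 for Smarcad1, Smarce1, Actl6b and Arid3c. The share of all genes with such intervals was not computed, so these counts show nothing particular to remodeler genes.

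The shift was also present within broad classes of level and length, which have a lower limit only. Among all genes averaging 50 CPM or more the median log2 fold was 0.04, and 44.2% were below 0. Among the 25 remodeler genes in that class it was -0.15, with 18 of them below 0. Among all genes with at least 5 kb of annotated exons the median was 0.03, and 46.0% were below 0. Among the 28 remodeler genes in that class it was -0.16, with 21 below 0. For the 1874 genes in both classes the median was 0.01, and 48.9% were below 0. The 21 remodeler genes in both classes had a median of -0.15, with 16 below 0. The part of level or length in the shift was not tested. By role, 11 of 13 compared BAF genes, 5 of 5 INO80 genes and 8 of 9 CHD genes were below 0, while both remaining SNF2 motors and 3 of 5 compared ARID genes outside BAF were above 0. In the cumulative plot of folds the remodeler genes lie left of all genes over most of the range and meet them near the lower tail.

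**Figure D1:**
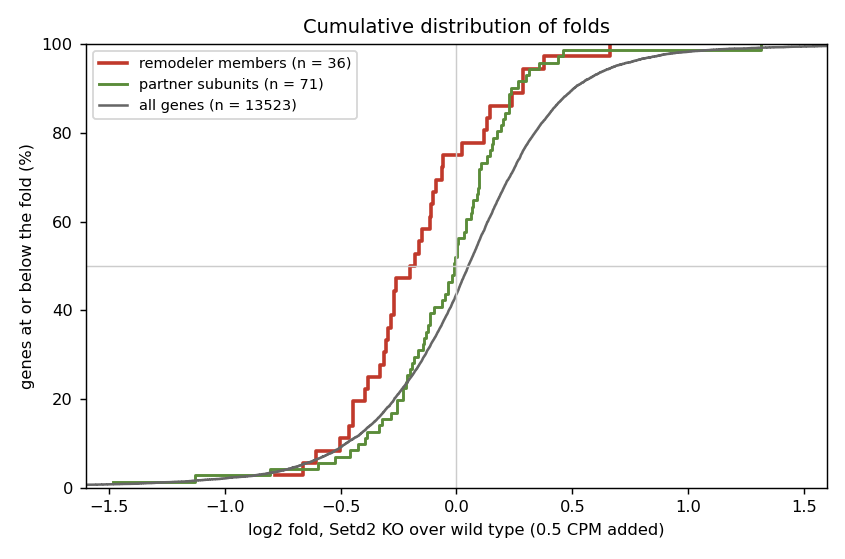
Cumulative percentage of genes (vertical axis) at or below each log2 fold of Setd2 KO over wild type (horizontal axis) for the 36 remodeler genes compared, 71 partner subunits and all 13523 genes. The medians are -0.19 for remodeler genes, -0.01 for partner subunits and 0.05 for all genes; genes beyond the plotted range are counted but not shown.

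Several esBAF genes stood among the highest remodeler levels in both libraries. Levels between genes are compared per kb of the longest annotated coding transcript, as CPM per kb. Such a level may be understated where the row spans only part of the annotated exon bases, as for Ino80d (18.8%), Smarcd3 (60.1%) and Ino80b (69.1%). Chd4, the main NuRD motor, led both libraries with 209 CPM per kb in KO and 237 CPM per kb in wild type. The BAF scaffold gene Smarcc1 came next with 102 CPM per kb in KO and 106 CPM per kb in wild type. Actl6a, Arid1a and Smarca4 held the third to the fifth place in both libraries in a changed order. Actl6a, an actin-related subunit of BAF, had 89.6 CPM per kb in KO and 69.0 CPM per kb in wild type. Arid1a, the ARID subunit of esBAF, had 75.3 CPM per kb in KO and 93.6 CPM per kb in wild type, and the motor gene Smarca4 had 75.2 CPM per kb in KO and 98.0 CPM per kb in wild type.

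The lowest places in both libraries were held by Actl6b, Arid3c, Smarca2, Ino80b and Smarcd3, of which Actl6b, Smarca2 and Smarcd3 are paralogs known from differentiated cells, while Smarcc2 stood higher. Actl6b, the neuronal actin-related subunit, had 6.13 read equivalents in the KO library and 10.9 in the wild-type library, or 0.0740 CPM per kb in KO and 0.122 CPM per kb in wild type. Arid3c, a DNA-binding ARID gene outside BAF, had 0.852 CPM in KO and 1.05 CPM in wild type. The motor paralog Smarca2 had 1.10 CPM per kb in KO and 1.35 CPM per kb in wild type. These genes were low in both genotypes, and the plot of levels shows them at the foot of the range in both libraries.

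**Figure D2:**
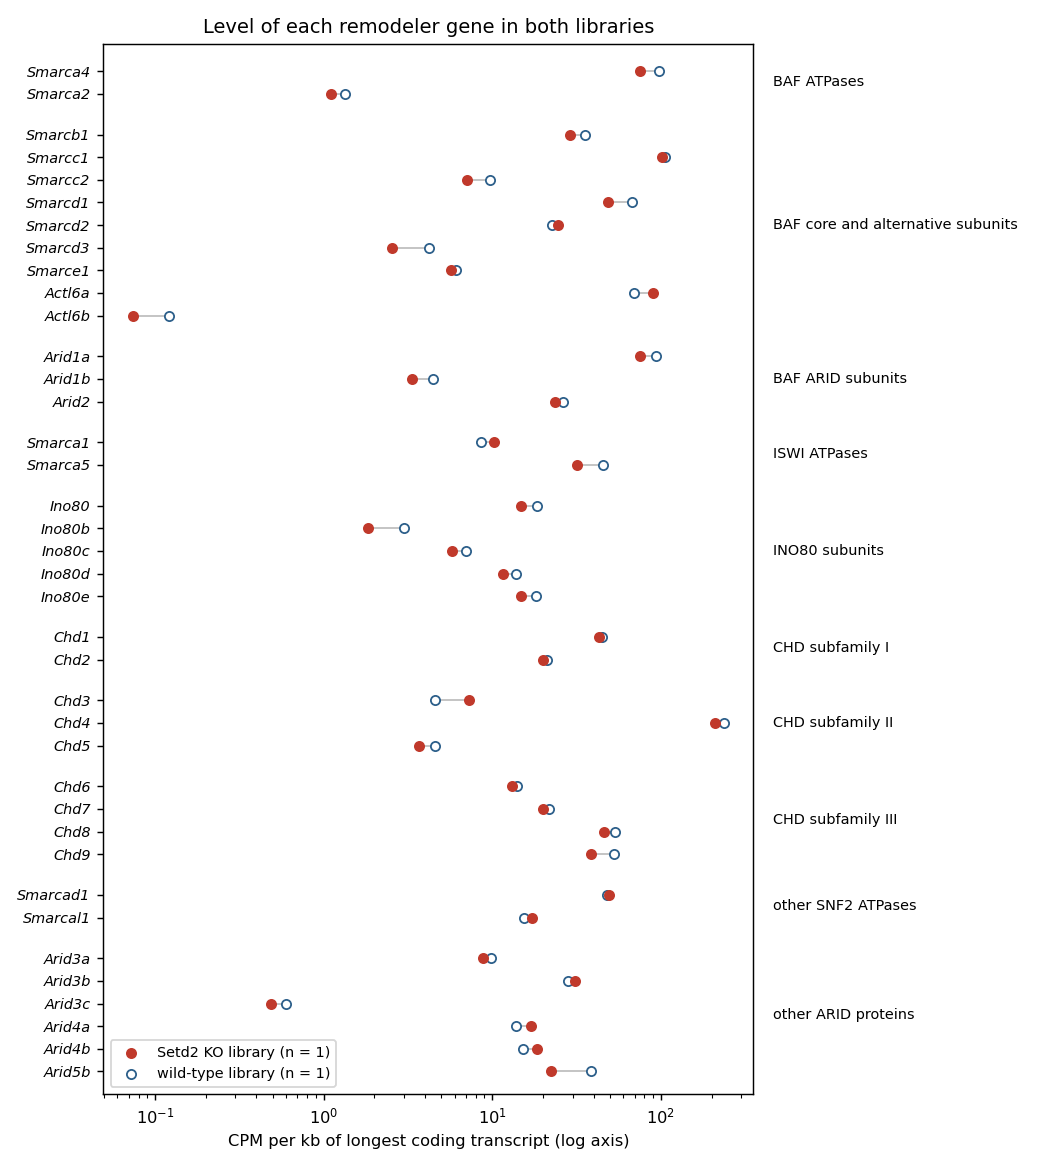
Level of each of the 38 remodeler genes in CPM per kb of the longest coding transcript (log axis), grouped by role; filled points are the Setd2 KO library and open points the wild-type library (n = 1 each), joined by a line. The gaps within a gene are small beside the range between genes, which runs from 0.0740 CPM per kb for Actl6b to 209 CPM per kb for Chd4 in the KO library.

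Both SWI/SNF motor genes were lower in the Setd2 KO library. Smarca4 (gene number 20586, mm9 chromosome 9 from 21420613 to 21508674) was at 480 CPM in KO and 625 CPM in wild type, 76.8% of the wild-type level (75.6 to 78.0%). Smarca2 (chromosome 19) was at 6.52 CPM in KO and 7.96 CPM in wild type, 81.9% (70.8 to 94.4%). The balance between these motors was not distinguishable between the libraries, with a Smarca2 to Smarca4 ratio in KO of 1.07 times that in wild type (counting interval 0.921 to 1.23).

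Of the ARID subunits that set apart the BAF subtypes, all 3 were lower. Arid1a (gene number 93760, mm9 chromosome 4 from 133234923 to 133309526) was at 617 CPM in KO and 767 CPM in wild type, 80.4% (79.3 to 81.6%). Its paralog Arid1b (chromosome 17) was at 38.0 CPM in KO and 50.2 CPM in wild type, 75.8% (71.5 to 80.3%). Arid2, which marks the PBAF complex, was at 212 CPM in KO and 237 CPM in wild type, 89.4% (87.2 to 91.7%). The Arid1b to Arid1a ratio was 0.942 times the wild-type ratio, with an interval that included 1 (0.888 to 1.00).

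The shared BAF subunits did not move together. Actl6a (gene number 56456, mm9 chromosome 3 from 32607468 to 32625893) was higher, at 176 CPM in KO and 136 CPM in wild type, 1.30-fold (1.26 to 1.34), with 16.2% of its annotated exon bases overlapping Mrpl47. The core subunit gene Smarcb1, a tumour suppressor in humans, was at 47.9 CPM in KO and 58.9 CPM in wild type, 81.4% (77.3 to 85.8%). The scaffold gene Smarcc1 was at 588 CPM in KO and 615 CPM in wild type, 95.7% (94.2 to 97.2%), and its paralog Smarcc2 was at 35.1 CPM in KO and 48.0 CPM in wild type, 73.1% (68.8 to 77.6%). The balance of the scaffold pair lay further toward Smarcc1, with a Smarcc2 to Smarcc1 ratio in KO of 0.764 times that in wild type (0.718 to 0.813). Smarce1, which carries an HMG domain, was at 16.5 CPM in KO and 17.8 CPM in wild type, a ratio whose interval included 1, and 43.3% of its transcript windows matched other places in the genome, so its level is uncertain.

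Within the Smarcd trio, alternative subunits of which a BAF complex takes a single type, the balance shifted from Smarcd1 toward Smarcd2. Smarcd1 (gene number 83797, mm9 chromosome 15 from 99532718 to 99544426) was at 154 CPM in KO and 213 CPM in wild type, 72.5% (70.5 to 74.6%). Smarcd2, known from blood cell development, was at 67.9 CPM in KO and 62.5 CPM in wild type, 1.09-fold (1.04 to 1.14). Smarcd3, known from heart and muscle, was at 4.42 CPM in KO and 7.28 CPM in wild type, 60.7% (51.4 to 71.5%). Per kb, Smarcd1 made up 64.2% of the trio in KO and 71.5% in wild type, Smarcd2 32.4% in KO and 24.1% in wild type, and Smarcd3 3.34% in KO and 4.44% in wild type. The size of the Smarcd3 share depends on the length used, since Smarcd1 exceeded Smarcd3 19.2-fold in KO and 16.1-fold in wild type per kb of transcript, but 50.4-fold in KO and 42.1-fold in wild type per kb of all annotated exons. The Smarcd2 to Smarcd1 ratio was 1.499 times the wild-type ratio (1.42 to 1.58), which needs neither depth nor length. For Smarcd3, 54.3% of annotated exon bases overlapped Chpf2 or Mir671, and the sources used here do not say whether strand was used in counting, so its value may hold reads of its neighbour.

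**Figure D3:**
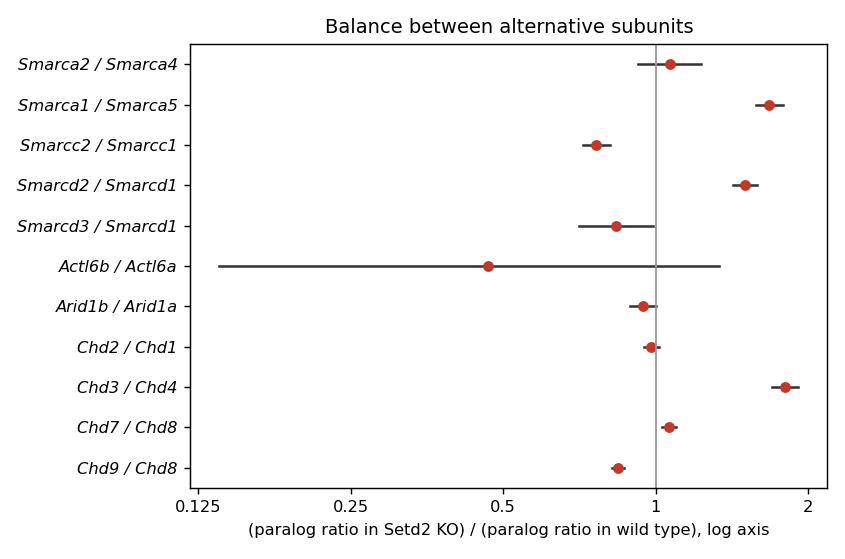
Ratio of paralog ratios, Setd2 KO over wild type (log axis), for 11 pairs of alternative subunits; points are values from 1 library per genotype and bars are 95% counting intervals. Chd3 over Chd4 (1.80), Smarca1 over Smarca5 (1.68) and Smarcd2 over Smarcd1 (1.499) lie above 1, as does Chd7 over Chd8 (1.06). Smarcc2 over Smarcc1 (0.764), Smarcd3 over Smarcd1 (0.837) and Chd9 over Chd8 (0.843) lie below 1, and the intervals of Smarca2 over Smarca4, Actl6b over Actl6a, Arid1b over Arid1a and Chd2 over Chd1 include 1. Smarca5 and Chd9 lie on chromosome 8, whose median log2 fold was -0.35, and its part in their ratios was not tested. Against the median of its own chromosome, the log2 fold was -0.10 for Chd9, -0.24 for Chd8, -0.16 for Smarca5 and 0.07 for Smarca1.

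The ISWI motor genes went opposite ways. Smarca5 (Snf2h), the ISWI motor of most dividing cells, was at 196 CPM in KO and 277 CPM in wild type, 70.6% (68.8 to 72.4%). Smarca1 (Snf2l), its X-linked paralog, was at 49.0 CPM in KO and 41.4 CPM in wild type, 1.18-fold (1.12 to 1.25). Per kb Smarca5 exceeded Smarca1 3.13-fold in KO and 5.26-fold in wild type, and the Smarca1 to Smarca5 ratio was 1.68 times the wild-type ratio (1.58 to 1.78). Smarca5 (gene number 93762, mm9 position 83223843 to 83263358) lies on chromosome 8, whose 719 compared genes had a median log2 fold of -0.35 with quartiles of -0.59 and -0.12, against medians of 0.00 to 0.13 on the other autosomes and 0.17 on the X chromosome. Chromosome Y stood further apart, with a median of 6.20 over 5 compared genes, all higher in KO, and holds no remodeler gene. The log2 fold of Smarca5 was -0.50, inside those quartiles, and that of Smarca1 was 0.24, near the X median. Of the transcript windows of Smarca5, 54.4% also matched other places, most often on chromosome 4, so its level is uncertain. The part of chromosome 8 in the lower Smarca5 value was not tested.

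All 5 INO80 genes were lower in the Setd2 KO library, and Ino80b was further below wild type than the others. The motor gene Ino80 (gene number 68142, mm9 chromosome 2 from 119198779 to 119303365) was at 93.8 CPM in KO and 118 CPM in wild type, 79.5% (76.6 to 82.6%). The accessory subunit genes Ino80c, Ino80d and Ino80e were at 82.6, 83.5 and 81.9% of the wild-type level. Ino80b, the lowest of the group, was at 2.78 CPM in KO and 4.49 CPM in wild type, 61.9% (49.9 to 75.9%), on 144 read equivalents in KO and 252 in wild type. Some of these values rest on part of the gene, since only 18.8% of the annotated exon bases of Ino80d lay within the span of its row. That share was 69.1% for Ino80b and 67.7% for Ino80e. For Ino80e, 23.7% of annotated exon bases overlapped Doc2a or Hirip3. Of the Ino80d windows, 41.1% matched outside the span of its row, most often on chromosome 1, its own chromosome. Whether these are exons of Ino80d itself was not tested.

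Among the CHD motors, Chd3 was the exception to a small downward shift. Chd3 (gene number 216848, mm9 chromosome 11 from 69156775 to 69182928), a NuRD motor, was at 52.8 CPM in KO and 33.2 CPM in wild type, 1.59-fold (1.499 to 1.69), the highest ratio of the 38 genes. Chd4 (gene number 107932, mm9 chromosome 6 from 125046181 to 125080519), the NuRD motor of stem cells, was at 1398 CPM in KO and 1585 CPM in wild type, 88.2% (87.4 to 89.1%). The balance between them shifted, since per kb Chd4 exceeded Chd3 28.7-fold in KO and 51.8-fold in wild type, and the Chd3 to Chd4 ratio was 1.80 times the wild-type ratio (1.70 to 1.92). Chd5, the NuRD motor gene known from brain and testis, was at 35.0 CPM in KO and 43.3 CPM in wild type, 80.8% (75.9 to 85.8%).

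Chd1 and Chd2, the pair closest to the yeast Chd1 motor, were the CHD genes with the smallest shifts. Chd1, which keeps stem cell chromatin open, was at 340 CPM in KO and 354 CPM in wild type, 96.0% (94.1 to 98.0%). Chd2 was at 180 CPM in KO and 192 CPM in wild type, 94.1% (91.5 to 96.7%). Their ratio to each other was not distinguishable between libraries (0.980 times, 0.946 to 1.01).

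The third CHD subfamily was lower throughout, by unequal amounts. Chd8, a regulator linked to autism in humans, was at 379 CPM in KO and 436 CPM in wild type, 87.0% (85.3 to 88.6%). Chd7, the gene of CHARGE syndrome, was at 205 CPM in KO and 222 CPM in wild type, 92.3% (90.0 to 94.8%), and Chd6 was at 92.6% (89.7 to 95.6%). Chd9 (gene number 109151, mm9 position 93352734 to 93578407) was at 448 CPM in KO and 612 CPM in wild type, 73.3% (72.1 to 74.5%). Chd9 also lies on chromosome 8, and its log2 fold of -0.45 was 0.10 below that chromosome's median. Without both chromosome 8 genes, the median log2 fold of the remaining 34 remodeler genes was -0.17, with 25 of them below 0. Measured against the median of its own chromosome, 28 of the 36 compared genes lay lower, against 50% of all genes.

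**Figure D4:**
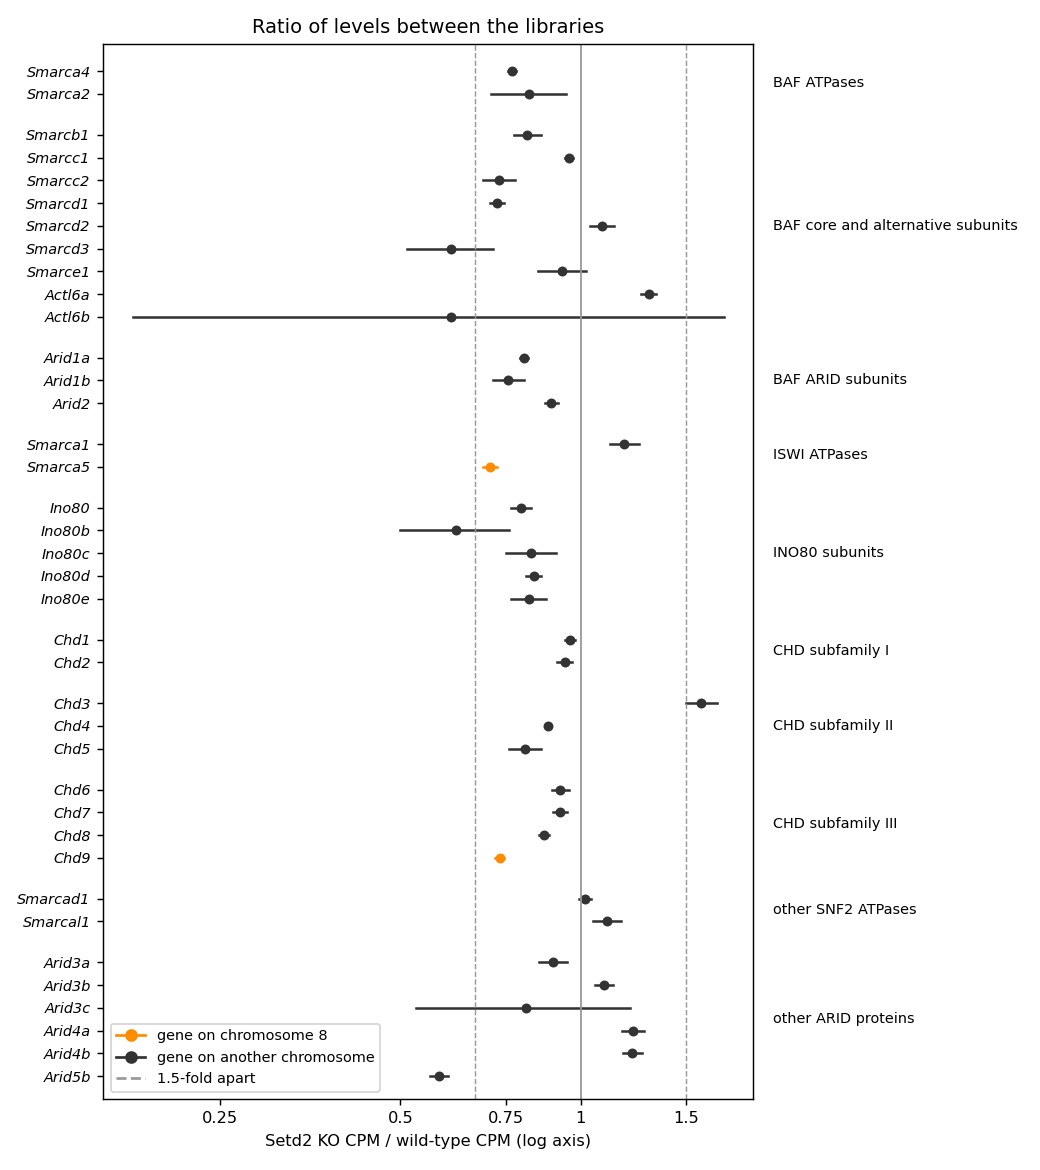
Ratio of Setd2 KO CPM to wild-type CPM (log axis) for each of the 38 remodeler genes, grouped by role; bars are 95% counting intervals, dashed lines mark 1.5-fold and the genes on chromosome 8 are in orange. Chd3 (1.59) lies beyond the upper line, and Arid5b (0.580), Smarcd3 (0.607) and Ino80b (0.619) beyond the lower, as does Actl6b, which was under the level floor and whose interval includes 1.

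The remaining SNF2 motors were nearly level. Smarcad1, which helps keep heterochromatin through replication, was at 250 CPM in KO and 246 CPM in wild type, 1.02-fold with an interval that included 1 (0.992 to 1.04), and its log2 fold of 0.02 turned to between -0.03 and -0.01 when the KO library was rescaled. Smarcal1, an annealing helicase at stalled replication forks, was at 52.6 CPM in KO and 47.5 CPM in wild type, 1.11-fold (1.05 to 1.17).

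The ARID genes that the rule takes in but that are not BAF subunits held the lowest value of all and several high ones. Arid5b (gene number 71371, mm9 chromosome 10 from 67558341 to 67741474), a DNA-binding partner of the demethylase Phf2, was at 100 CPM in KO and 173 CPM in wild type, 58.1% (56.1 to 60.0%). Arid4a and Arid4b, paralogs of the Sin3 deacetylase complex, were both 1.22-fold higher. Arid4a was at 85.0 CPM in KO and 69.5 CPM in wild type (1.17 to 1.28-fold), and Arid4b at 109 CPM in KO and 89.1 CPM in wild type (1.18 to 1.27-fold). Arid3b was at 129 CPM in KO and 118 CPM in wild type, and Arid3a at 47.5 CPM in KO and 52.7 CPM in wild type. These genes are members by name, and without them the median log2 fold of the 31 compared genes was -0.26.

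Since members moved in opposite directions, the promoters of 5 of them are shown, from the higher Actl6a, the lower esBAF and INO80 genes and the lowest gene, Arid5b. RefSeq promoter windows of 300 bases, from 250 before to 50 after the annotated start, were found for 28 of the 38 genes, at 35 starts. Smarce1, Arid2, Ino80c, Ino80d, Chd1, Chd2, Chd3, Chd7, Arid3a and Arid4a were not among them. The windows are on the GRCm38.p6 build, unlike the mm9 positions above, with Actl6a at chr3:32708296-32708595, plus strand; Smarca4 at chr9:21615919-21616218, plus strand; Smarcd1 at chr15:99702037-99702336, plus strand; Ino80 at chr2:119477638-119477937, minus strand; and Arid5b at chr10:68278677-68278976, minus strand. The letters run 5′ to 3′ along the gene's strand, and capitals mark the GC box GGGCGG, the ETS core CCGGAAG, the YY1 core GATGGCG, the TATA box TATAAA and CCAAT, each searched on both strands. No marked motif overlaps another in these windows.
Actl6a: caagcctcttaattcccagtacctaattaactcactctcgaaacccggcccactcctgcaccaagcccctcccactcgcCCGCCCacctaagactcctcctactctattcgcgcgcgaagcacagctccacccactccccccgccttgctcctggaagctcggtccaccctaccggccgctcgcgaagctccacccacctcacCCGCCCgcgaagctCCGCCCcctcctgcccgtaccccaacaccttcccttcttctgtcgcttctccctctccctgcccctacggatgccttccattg
Smarca4: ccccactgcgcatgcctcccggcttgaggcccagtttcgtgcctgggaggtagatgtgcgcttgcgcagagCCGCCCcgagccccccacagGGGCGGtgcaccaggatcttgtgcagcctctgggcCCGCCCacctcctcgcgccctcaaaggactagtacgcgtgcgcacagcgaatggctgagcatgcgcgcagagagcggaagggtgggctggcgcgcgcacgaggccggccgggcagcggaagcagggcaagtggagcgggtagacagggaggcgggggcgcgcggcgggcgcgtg
Smarcd1: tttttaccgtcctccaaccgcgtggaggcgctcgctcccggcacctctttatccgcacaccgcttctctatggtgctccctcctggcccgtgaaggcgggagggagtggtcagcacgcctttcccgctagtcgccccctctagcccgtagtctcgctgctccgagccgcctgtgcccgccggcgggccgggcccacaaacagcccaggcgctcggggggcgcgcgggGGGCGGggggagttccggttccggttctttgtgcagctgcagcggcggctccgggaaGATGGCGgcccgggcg
Ino80: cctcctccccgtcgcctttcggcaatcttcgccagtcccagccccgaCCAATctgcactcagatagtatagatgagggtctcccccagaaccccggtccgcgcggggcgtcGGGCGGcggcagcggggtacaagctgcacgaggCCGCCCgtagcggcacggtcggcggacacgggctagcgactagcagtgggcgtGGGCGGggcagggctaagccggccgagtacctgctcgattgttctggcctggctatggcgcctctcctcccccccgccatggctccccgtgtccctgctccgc
Arid5b: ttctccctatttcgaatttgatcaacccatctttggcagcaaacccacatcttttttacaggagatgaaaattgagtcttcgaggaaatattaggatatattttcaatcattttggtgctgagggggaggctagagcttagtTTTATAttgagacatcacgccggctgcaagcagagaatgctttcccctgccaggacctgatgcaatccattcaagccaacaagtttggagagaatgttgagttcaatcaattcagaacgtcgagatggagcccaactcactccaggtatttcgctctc
The first 4 of these windows are rich in GC and hold GC boxes, with 3 each in Actl6a, Smarca4 and Ino80 and 1 in Smarcd1, and they include genes that were higher and genes that were lower. Smarcd1 also holds the YY1 core just after its start, and Ino80 a CCAAT box. The window of Arid5b has no GC box, a GC content of 43.3% and 7 CpG sites, against 63.7% GC and 21 sites in Actl6a and 72.3% GC and 33 sites in Smarca4, and it holds a TATA box sequence on the reverse strand. Over the 28 genes, 25 had a GC box at some start, or 89.3%, against 71.5% of the 8743 compared genes with a window and 35.7% of all 32851 windows. The ETS core was found in 5 of the 28 genes (17.9%, against 19.5% of compared genes), the YY1 core in 3 (10.7%, against 7.37%), CCAAT in 11 (39.3%, against 43.8%) and the TATA box in Arid5b and Smarcd2 (7.14%, against 8.58%). A match is a string of letters and says nothing on binding.

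The partner subunits that the naming rule leaves out stayed closer to all genes. Of 72 such genes with a row, 71 were compared, 37 were below 0 and 34 above, and their median log2 fold was -0.01. Of the 71 compared, 1 was at least 2-fold higher, against 1.76% of all genes, and 2 at least 2-fold lower, against 2.11%. The lower ones were Hdac1 and Bcl7c, and most windows of each matched outside its row, most often on chromosome 17 for Hdac1. BAF and PBAF partners had a median of -0.11 over 15 genes, with 10 below 0. Bcl11a, a zinc finger subunit of blood and brain BAF, was at 3.29 CPM in KO and 1.02 CPM in wild type, 3.21-fold (2.38 to 4.45). Dpf1, the neuronal PHD finger subunit, was at 7.72 CPM in KO and 13.9 CPM in wild type, 55.7% (49.2 to 62.9%). Bcl7c was at 41.0% and Gltscr1 at 72.1% of the wild-type level. Of the Bcl7c windows, 87.1% matched outside the span of its row, most often on chromosome 7, its own chromosome. Whether these are exons of Bcl7c itself was not tested, so its level is uncertain.

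The ISWI partners had a median of 0.07 over 11 genes. Their largest shift was that of Cecr2, which forms a complex with ISWI motors and was at 201 CPM in KO and 264 CPM in wild type, 76.1% (74.2 to 78.0%). Bptf, the large subunit of NURF, was at 87.1%, while the histone chaperone gene Rbbp4 was 1.18-fold and Baz1a 1.16-fold higher. NuRD partners had a median of 0.02 over 12 genes, 6 on each side of 0. The deacetylase gene Hdac1 was at 19.6 CPM in KO and 55.7 CPM in wild type, 35.2% (32.8 to 37.8%), with 89.4% of its windows shared, and its paralog Hdac2 was 1.36-fold higher (1.32 to 1.39). Gatad2a, on chromosome 8, was at 66.1% and the methyl-CpG reader gene Mbd2 was 1.39-fold higher.

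The partners of INO80, SRCAP and TIP60-p400 did not follow the 5 Ino80 genes, with a median of -0.01 over 23 genes and 12 of them below 0. The scaffold gene Trrap was at 366 CPM in KO and 491 CPM in wild type, 74.4% (73.0 to 75.8%). Mcrs1 was at 67.8% with 92.8% of its windows shared, while Mbtd1 was 1.28-fold and Actr6 1.25-fold higher. The other SNF2 motors had a median of 0.00 over 13 genes, with Rad54l2 at 76.5%, Ep400 at 83.7% and Atrx at 85.3% of the wild-type level and Shprh 1.23-fold higher.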

How the data were processed

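Total RNA of 1 Setd2 KO and 1 wild-type mESC library was measured. The mm9 build, TopHat 1.0.13 and CASAVA 1.6.0 are named, per the submitters' processing notes, without their roles. The file headers name RPKM, but the deposited values behave as log2(x + 1) of unscaled totals x: of low x (under 200), 85.7% in KO and 85.9% in wild type were whole multiples of 1/76 within 0.05 of a base. How the authors made these log2 values is not stated in the sources used here. Here x was scaled to 1000000 per library, taking the highest row of each symbol (17817 symbols). Folds used a pseudocount of 0.5 CPM, which understates low genes, and a floor of 1 CPM on the mean. Ratios have exact conditional binomial 95% intervals on rounded read equivalents (scipy 1.17.1). These cover counting error only, since there was 1 library per genotype. The reads carry no molecular identifiers and so are not independent, which can make the intervals too narrow even for counting error. Design, lists and members were chosen with earlier results of these data known. Named are all members, Setd2 and up to 4 genes of each partner list with the largest absolute fold.

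Lengths and overlaps came from GENCODE models of the NCBIM37 assembly, which is mm9; all 38 genes had a coding model on the same strand, and for 32 at least 90% of exon bases lay in the row's span. Windows of 76 bases, every 19 bases of the longest coding transcript, were placed with minimap2 2.31 and counted as shared at up to 2 mismatches elsewhere. Elsewhere means away from the span of the gene's row, so exons of the same gene far outside that span count as shared too. The scripts were tested on simulated data. Alternatives were pseudocounts of 0.1 and 1 CPM, a floor of 5 CPM or none, 3 rescalings, summed rows, dropping chromosomes 8 and Y, and dropping remodeler genes with at least 20% shared windows.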

Additional observations from a re-analysis of the deposited data

How the results depend on the processing

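No paired analysis was possible because there was a single library of either genotype, nor could any library be left out. The counts of remodeler genes past 1.5-fold stayed at 1 higher and between 2 and 3 lower over the 9 alternatives, and none reached 2-fold, a count of 0, in any of them. Their median log2 fold ran from -0.24 with a trimmed mean of log ratios to -0.17 without chromosomes 8 and Y, and was -0.18 without genes with shared windows. Of the compared remodeler genes, Smarcad1 alone changed sign, under the 3 rescalings. The log2 fold of Setd2 was -1.37 as reported, -1.43 with the median log2 ratio set to 0, -1.43 with the trimmed mean and -1.41 with the upper quartile, all 3 beyond its counting interval. At a 5 CPM floor, under which fewer genes are compared, 108 genes were at least 2-fold higher (238 as reported) and 577 at least 1.5-fold higher (1004 as reported). The rescalings shifted all folds by between -0.05 and -0.04. Lengths taken as the union of all annotated exons, an alternative added after seeing the data, changed levels per kb: Smarcd1 over Smarcd3 became 50.4 in KO and 42.1 in wild type, against 19.2 in KO and 16.1 in wild type with transcript length, and Chd9 over Chd8 changed side, with Chd8 over Chd9 at 0.876 in KO and 0.738 in wild type, against 1.19 in KO and 1.01 in wild type. Ratios of paralog ratios need neither depth nor length, and no remodeler gene had more than its own row to sum. The rescalings, lengths and summed rows therefore could not move them, and no adjustment for chromosome was made to them. Genes under about 10 CPM, such as Ino80b and Smarcd3, have the widest intervals, and without replicates no alternative says how far cultures differ.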

Other observations

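Smarcc1 is the remodeler gene closest to the disrupted locus, 308450 bases before Setd2 on chromosome 9 (mm9). Over the 5 compared genes between them the log2 fold of Setd2 KO over wild type ran from -0.47 for 2610002I17Rik to 0.11 for Klhl18, with -0.06 for Smarcc1 and -1.37 for Setd2.

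Ranked by CPM per kb among the 38 remodeler genes, most places changed little between libraries: Arid5b stood at place 16 in KO and 12 in wild type, Smarcad1 at place 6 in KO and 9 in wild type, and Chd3 at place 28 in KO and 31 in wild type. Chd4, Smarcc1, Smarca2, Arid3c and Actl6b were among the genes that held the same place in both.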
